A study of Mus musculus with 8 samples.

Results

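The 10 genes followed here have transcripts that are induced by neuronal activity and were measured in RNA bound to tagged ribosomes of cortical interneurons: Fos, Fosb, Junb, Egr1, Egr3, Arc, Npas4, Nr4a1, Bdnf and Nptx2. They were taken by gene symbol from the deposited table, which gave 10 of its 56576 genes, and all 10 passed the filter on low values together with 31171 genes in all. RNA came from synaptosomes, the pinched-off synaptic terminals of homogenized tissue, which were prepared from cerebral cortex at postnatal day 15. There were 4 control libraries from Lhx6-Cre;Erbb4+/+;Rpl22HA/HA mice (numbered 1, 3, 4 and 5) and 4 libraries from Erbb4 conditional mutants, Lhx6-Cre;Erbb4F/F;Rpl22HA/HA (numbered 2, 3, 4 and 5). Both genotypes carried the Lhx6-Cre transgene, which acts in the cortical interneurons that arise from the MGE and POA, the medial ganglionic eminence and the preoptic area of the embryo, and both carried the HA-tagged ribosomal protein Rpl22 through which ribosomes were pulled down. Levels are normalized counts, the reads of a gene divided by 1 size factor per library. The Cre therefore switched on the tag in all 8 libraries and deleted Erbb4, a receptor for neuregulins, in the mutants alone. The question asked here was whether ribosome-associated transcripts of these genes differed between genotypes and whether they followed the interneuron transcripts Gad1 and Lhx6 from library to library.

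Immediate early genes are transcribed within minutes of synaptic input, without new protein synthesis, through calcium-dependent kinases that act on transcription factors already bound near their promoters, such as CREB at the cAMP response element (CRE) and SRF at the CArG box. Fos, Fosb and Junb encode subunits of the AP-1 dimer, Egr1 and Egr3 encode zinc finger factors, Npas4 encodes a neuron-restricted bHLH-PAS factor and Nr4a1 an orphan nuclear receptor. Arc, Bdnf and Nptx2 encode effectors: Arc is a cytoskeleton-associated protein that promotes endocytosis of AMPA receptors and whose mRNA travels into dendrites, Bdnf is a neurotrophin that signals through TrkB, and Nptx2 (Narp) is a secreted pentraxin that clusters AMPA receptors at excitatory synapses on parvalbumin-expressing interneurons. Parvalbumin cells are themselves among the cells in which Lhx6-Cre acts. From which cells the reads of Nptx2 and the other 9 genes came was not tested.

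The upstream sequences are shown for the elements named above. RefSeq (GRCm38.p6) gave 12 start sites for 6 of the 10 genes, of which 7 belonged to Bdnf. In the 250 bases before each start, the core of the CRE was searched as TGACG or, on the other strand, CGTCA, and the TATA motif as TATAA on the strand of the gene. The core was present in 6 of 12 windows, 1 window for each of the 6 genes, against 17.77% of the 32851 windows of all genes. TATAA was present in 2 of 12 windows, against 16% of all. The full palindrome TGACGTCA was present in 0 of 12, against 1.546%. The CArG box, searched as CC, 6 bases of A or T, and GG, was present in 0 of 12, against 1.467%. Elements more than 250 bases upstream were not searched, and Egr1, Egr3, Arc and Nptx2 had no window. These counts therefore do not show that the genes lack such elements. The windows of Fos (chr12:85473640-85473889, plus strand), Junb (chr8:84978749-84978998, minus), Npas4 (chr19:4989972-4990221, minus), Nr4a1 (chr15:101266596-101266845, plus) and 1 internal start of Bdnf (chr2:109692186-109692435, plus) are given here 5′ to 3′ to show where the motifs lie, with the CRE core and TATAA in capitals.
Fos: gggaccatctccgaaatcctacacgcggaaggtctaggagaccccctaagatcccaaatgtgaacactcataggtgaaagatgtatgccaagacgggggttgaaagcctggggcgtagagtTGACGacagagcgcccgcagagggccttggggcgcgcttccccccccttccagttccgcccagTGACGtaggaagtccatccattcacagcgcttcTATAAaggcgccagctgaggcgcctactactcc
Junb: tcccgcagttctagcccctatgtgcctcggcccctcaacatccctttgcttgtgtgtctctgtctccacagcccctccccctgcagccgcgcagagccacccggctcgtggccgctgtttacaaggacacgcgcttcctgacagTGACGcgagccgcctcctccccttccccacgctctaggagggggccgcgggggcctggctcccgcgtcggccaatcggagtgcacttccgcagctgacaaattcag
Npas4: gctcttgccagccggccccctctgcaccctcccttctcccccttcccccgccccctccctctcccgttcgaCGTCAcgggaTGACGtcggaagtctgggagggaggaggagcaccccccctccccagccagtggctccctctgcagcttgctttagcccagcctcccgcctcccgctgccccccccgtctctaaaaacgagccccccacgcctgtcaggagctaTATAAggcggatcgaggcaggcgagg
Nr4a1: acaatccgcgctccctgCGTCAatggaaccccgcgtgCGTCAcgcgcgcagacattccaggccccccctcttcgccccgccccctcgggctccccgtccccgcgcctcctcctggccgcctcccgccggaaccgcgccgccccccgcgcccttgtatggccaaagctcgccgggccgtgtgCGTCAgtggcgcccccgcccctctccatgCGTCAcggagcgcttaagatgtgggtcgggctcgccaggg
Bdnf: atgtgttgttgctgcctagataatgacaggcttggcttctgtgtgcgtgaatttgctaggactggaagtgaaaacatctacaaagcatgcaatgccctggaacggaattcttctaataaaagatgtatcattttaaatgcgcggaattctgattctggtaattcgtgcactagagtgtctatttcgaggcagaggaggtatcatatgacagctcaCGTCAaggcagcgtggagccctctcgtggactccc
The Fos window held cores that began 129 and 66 bases before the start and a TATAA 33 bases before it. Npas4 had cores at 179 and 169 bases and a TATAA at 26 bases. Nr4a1 had 4 cores, at 233, 213, 69 and 40 bases, while Junb and the Bdnf start had 1 each, at 106 and 35 bases, and the window of Fosb 1 at 60 bases. These are matches of letters, and binding was not measured.

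The libraries held between 51010687 and 80226984 reads on genes in controls and between 58967504 and 74609576 in mutants. Erbb4 was 1640.1, 5377, 4306 and 3034 normalized counts in control 1, 3, 4 and 5, and 1711, 1648, 1233 and 1048 in mutant 2, 3, 4 and 5, so that the library labelled control 1 lay among the mutants. Whether the counted constitutive regions include the part of Erbb4 that Cre removes was not tested, so this is a partial check of the labels. Its fitted difference was -1.25 on the log2 scale (SE 0.34, limma adjusted p = 0.58), or -1.58 without that library and -1.68 when blocked on replicate number. The block compares genotypes only within numbers 3, 4 and 5, so control 1 and mutant 2 do not enter its difference. It is therefore not independent of leaving out control 1. A gene was called when limma gave an unadjusted p of at most 0.05 with a fold of at least 1.5. These are the thresholds of the study but not its test, and Erbb4 was called lower. The labelled interneurons were present through their markers, but transcripts of other cells were abundant: Slc17a7, the vesicular glutamate transporter of excitatory neurons, reached 36495 ± 5023 normalized counts per kb of exon in controls (SD, n = 4), against 1127 ± 609 for Gad1, the GABA-synthesizing enzyme. Of 16 tested markers of MGE-derived interneurons, 5 were called lower and 0 higher in mutants, against 3.17% and 3.98% of all genes. Their median log2 difference was -0.93. Their summed level ran from 165400 to 825453 normalized counts in controls and from 70943 to 353457 in mutants. Without the library labelled control 1, 3 of the 16 were called lower, and 12 were in a fit blocked on replicate number. Gad1 was called lower (-1.04, SE 0.47), and that call was lost without any one of control 1, 3 or 4 or mutant 4 or 5, where the difference ran from -1.03 to -0.73. Lhx6, the transcription factor of this lineage, was not called (-0.69, SE 0.32), but was called without control 5, mutant 2 or mutant 3 (-0.93 to -0.80) and with that block (-0.81). Fewer cells of a type and less RNA per cell cannot be told apart in such samples. Endothelial and mural markers had 4 of 12 called higher and 0 lower (median 0.48), with summed levels of 183487 to 289840 in controls and 276602 to 295817 in mutants, and excitatory markers had 1 of 12 called in each direction (median -0.12). The other panels had 0 of 9 called for CGE-derived interneurons (median -0.60), 0 of 10 for astrocytes (-0.11), 3 lower of 10 for oligodendrocytes (-0.62), 0 of 7 for their precursors (-0.31), 0 of 10 for microglia (-0.44) and 1 lower of 8 for heat shock genes (-0.32). Without the library labelled control 1, 1 endothelial and mural marker was called higher (median 0.32) and 0 oligodendrocyte markers were called (median -0.34), and the replicate block gave the same counts of 1 and 0 (medians 0.37 and -0.34). The block called 2 CGE markers, 1 of the precursors and 2 heat shock genes lower, and 0 excitatory markers lower. No marker was at 0 in every library, and the part of these cells in the results was not tested.

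Nptx2 was lower in Erbb4 conditional mutants, by 0.65 on the log2 scale, while the other 9 genes did not pass the test. By the rule above 1 of the 10 was called lower and 0 higher, against 3.17% and 3.98% of all genes tested. The smallest adjusted p of the 10 was 0.58, so that 0 passed at an adjusted p under 0.05, against 0.0449% of all genes (14 genes, all lower). At an unadjusted p under 0.05 alone, 1 of the 10 and 2596 of all genes passed. The fitted log2 difference was below 0 for 7 of the 10 genes and above 0 for 3, with a median of -0.21 against 0.06 for all genes. This balance turned to 4 below and 6 above with the replicate block (median 0.22) and with library weights (median 0.17). All 10 were above 0 once values were taken relative to Gad1 or Lhx6 in each library, scalings that moved the median of all genes to 1.10 and 0.75 and that of the 10 genes to 0.83 and 0.48. Without Fosb, which was listed at 0 in 1 library, the median was -0.38. Without the library labelled control 1, 0 of the 10 were called, 5 lay below 0 and 5 above, and the median was 0.019.

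**Figure D1:**
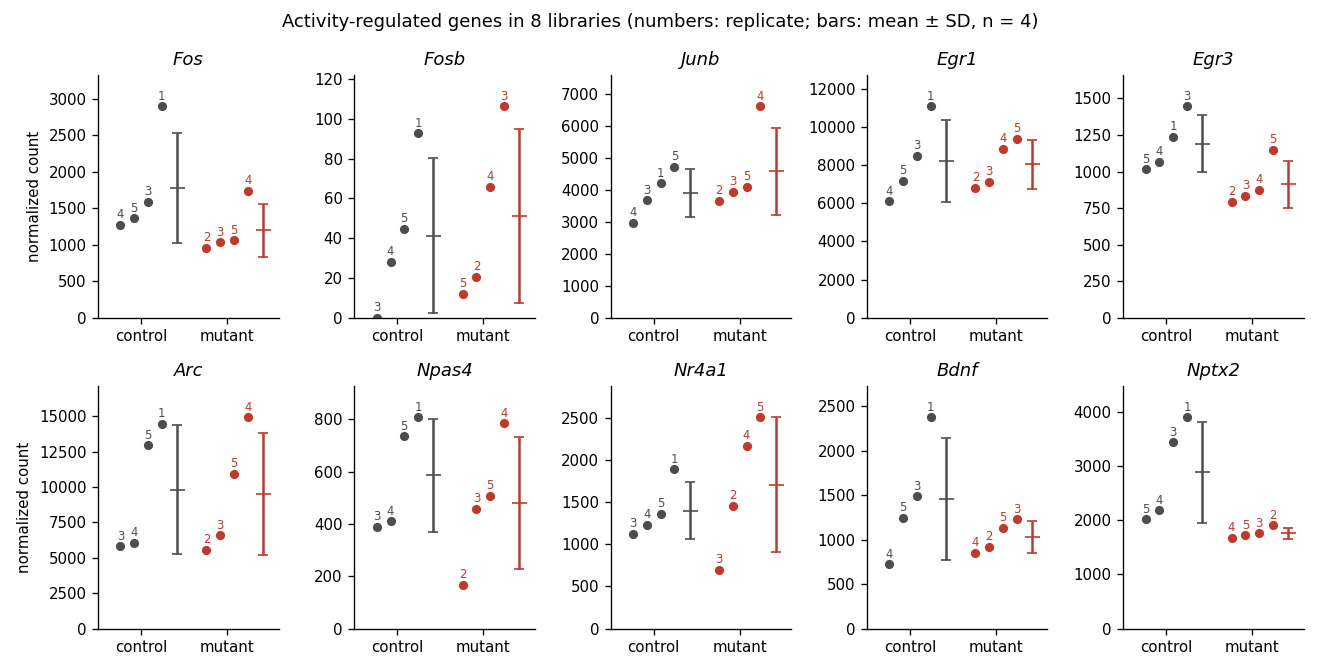
Normalized counts (y axis, linear, from 0) of the 10 genes in the 4 control (grey) and 4 mutant (red) libraries. Points are libraries marked with their replicate number and bars are the mean ± SD. Only in the panel of Nptx2 do the 4 mutants (1669 to 1905) all lie below the 4 controls (2016 to 3899), and the library labelled control 1 is the highest for 5 of the 10 genes.

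Among the AP-1 subunits, Fos (GSMG0008335; chr12:85473889-85477274, mm10, the span of the gene) was 2894, 1588, 1269 and 1363 normalized counts in control 1, 3, 4 and 5 and 956, 1035, 1742 and 1061 in mutant 2, 3, 4 and 5. The highest library was the one labelled control 1 and the lowest mutant 2, and mutant 4 lay within the range of the controls. The means were 1779 ± 756 and 1198 ± 365 (SD, n = 4 each), and the log2 difference of -0.53 (95% interval -1.19 to 0.13, limma adjusted p = 0.58) did not pass, nor did the exact permutation test on ranks (p = 0.20). It was -0.27 without the library labelled control 1, -0.17 with the replicate block and -0.14 with library weights, and -0.72, then called, without mutant 4.

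Junb (GSMG0038695; chr8:84972736-84978748) was 4214, 3678, 2971 and 4733 in controls and 3658, 3948, 6620 and 4110.1 in mutants. Apart from mutant 4, the mutants lay inside the range of the controls, and the log2 difference was 0.21 (95% interval -0.31 to 0.73, limma adjusted p = 0.76). Its span overlaps that of Prdx2, a peroxiredoxin gene with a mean of 5151 normalized counts, and reads of the shared stretch cannot be assigned with certainty. Fosb (GSMG0035578; chr7:19302696-19310046) was the least abundant of the 10, at 92.7, 0, 28.0 and 44.5 in controls and 20.5, 106, 65.6 and 11.9 in mutants. It gave no usable comparison: the log2 difference of 1.00 had an interval from -2.0 to 4.0 and became -0.41 without control 3, the library listed at 0.

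The zinc finger factors had the lowest SD within genotypes of the 10, at 0.31 for Egr1 and 0.23 for Egr3 on the log2 scale. Egr1 (GSMG0018220; chr18:34859823-34864981) was 11084, 8497, 6107 and 7193 in controls and 6801, 7116, 8871 and 9399 in mutants. Its means were 8220.3 ± 2144 and 8047 ± 1282 (SD, n = 4), and the log2 difference was -0.01 with a 95% interval from -0.50 to 0.48, so a change of 1.5-fold or more was outside the interval in both directions. Egr3 (GSMG0011762; chr14:70077317-70082614) was 1237, 1445, 1066 and 1014 in controls and 793, 835, 876 and 1148 in mutants. The 3 lowest libraries were mutants, but mutant 5 lay above control 4 and control 5. The log2 difference was -0.38 (95% interval -0.86 to 0.10, limma adjusted p = 0.58), and the exact permutation test on ranks gave p = 0.11.

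Npas4 (GSMG0019959; chr19:4984354-4990316) had the widest range after Fosb. It was 808, 389, 410.4 and 736 in controls and 168, 459, 785 and 507 in mutants, which is 4.8-fold from the lowest to the highest library. The genotypes overlapped over most of that range, and the log2 difference was -0.41 (95% interval -1.42 to 0.61). Nr4a1 (GSMG0013663; chr15:101266846-101274795) was 1884, 1119, 1225 and 1362 in controls and 1457, 694, 2162 and 2503 in mutants. Mutants held both its highest and its lowest library, and the log2 difference was 0.16 (95% interval -0.66 to 0.98).

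Of the effectors, Arc (GSMG0014115; chr15:74669081-74672572) was 14474, 5807, 6055 and 12953 in controls and 5545, 6581, 14936 and 10943 in mutants. No library lay between 6581 and 10943, and 2 controls and 2 mutants lay on each side of that gap. The log2 difference was -0.04 (95% interval -0.89 to 0.82). Bdnf (GSMG0021533; chr2:109674700-109727043) was 2376, 1485, 722 and 1244 in controls and 919, 1229, 848 and 1132 in mutants. Controls held both its highest and its lowest library, and the log2 difference of -0.39 (95% interval -1.11 to 0.34, limma adjusted p = 0.69) did not pass. It was -0.11 without the library labelled control 1, -0.059 with the replicate block and -0.087 with library weights, and -0.68, then called, without control 4.

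Nptx2 (GSMG0030037; chr5:144545886-144557478) was 3899, 3437, 2183 and 2016 normalized counts in control 1, 3, 4 and 5, and 1905, 1756, 1669 and 1719.7 in mutant 2, 3, 4 and 5. Every mutant lay below every control, which held for 2.17% of all genes, and the exact permutation test on ranks gave p = 0.029, the smallest that 4 against 4 libraries can give. The means were 2884 ± 927 and 1762 ± 101 (SD, n = 4), and the log2 difference was -0.65 (SE 0.24, 95% interval -1.18 to -0.13, limma adjusted p = 0.58). The spread came from the controls, where the library labelled control 1 and control 3 lay well above control 4 and control 5. Without the library labelled control 1 the difference was -0.49 and without control 3 it was -0.55, and in both cases the call was lost. Blocked on replicate number it was -0.53, which is under 1.5-fold. Relative to Gad1 it was 0.39 and relative to Lhx6 0.04, against the medians of all genes given above.

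**Figure D2:**
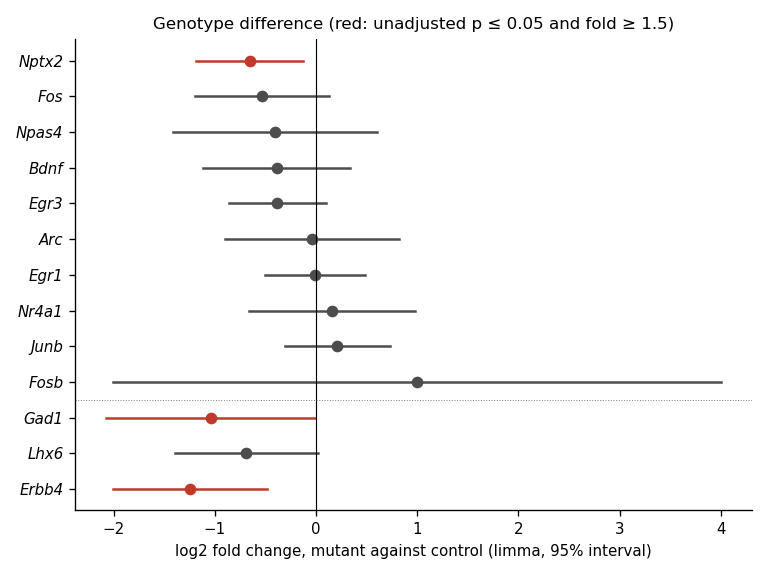
Log2 fold change of mutants against controls (x axis) with its 95% interval from limma for the 10 genes, ordered by size, and for Gad1, Lhx6 and Erbb4. Red marks genes that were called. Of the 10 genes, only the interval of Nptx2 (-1.18 to -0.13) excludes 0. Values relative to Gad1 or Lhx6 in each library are not drawn. With them all 10 differences lie above 0, with medians of 0.83 and 0.48 against 1.10 and 0.75 for all genes.

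Levels were set in order across genes on a scale per kb of merged exon (GENCODE vM21), which is approximate since reads were counted on constitutive regions. The place of Junb is further uncertain, since its span overlaps that of Prdx2, as given above. In controls Arc was highest at 3213 ± 1484 normalized counts per kb (SD, n = 4), followed by Junb at 2155 ± 417, Egr1 at 1833 ± 478, Nptx2 at 1137 ± 366, Fos at 844 ± 359 and Nr4a1 at 522 ± 127. Egr3 at 290.1 ± 47.4, Bdnf at 234 ± 111, Npas4 at 162 ± 60.0 and Fosb at 10.9 ± 10.3 were lowest. Neighbours in this order differed by less than the larger of their SDs from Arc to Egr1, from Nptx2 to Nr4a1 and from Egr3 to Npas4. The genes share the same libraries, and their order within each library was not compared. In mutants the order was the same but for Nr4a1 (636 ± 299) above Fos (568 ± 173), which again differed by less than their spread.

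The same libraries tended to be high or low for several of the genes at once. The library labelled control 1 was highest for 5 of the 10 and among the top 3 libraries for all 10, and mutant 4 was among the top 3 for 7. Mutant 2 was lowest for 4 and among the bottom 3 for 8, and control 4 was lowest for 3 and among the bottom 3 for 6. The median SD within genotypes was 0.50 on the log2 scale for the 10 genes, against 0.49 for the 20014 genes with a mean of at least 100 (quartiles 0.33 to 0.71). Those genes were not matched to the 10 in level, and Fosb, with means of 41.3 and 51.1, lies below that limit. Whether the spread is usual for genes of the same abundance was not tested.

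Across the 8 libraries, 1 of the 10 genes, Nptx2, passed the unadjusted test against Gad1 and against Lhx6, a share near that of all genes, and none passed after adjustment. Gad1 was 5482, 8135, 4342 and 1720.4 in controls and 3465, 2751, 1719 and 1130.2 in mutants. Lhx6 was 1130.2, 1781, 1280.1 and 701 in controls and 899, 964, 577 and 532 in mutants. The pair moved together (r = 0.96, exact permutation p = 0.00042, rho = 0.95, exact permutation p = 0.0011), so relations with them are not independent. Pearson r and Spearman rho were taken on log2 values over all 40320 pairings of the 8 libraries, for 40 relations in all (10 genes against Gad1, Lhx6 and 2 panels of other cells).

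For Gad1, 1 of the 10 genes had a positive r with an exact permutation p of at most 0.05 and 0 had a negative one, against 10.6% and 9.72% of all genes. That gene was Nptx2, with r = 0.81 (exact permutation p = 0.0091, adjusted over all genes 0.11) and rho = 0.88 (exact permutation p = 0.0072). Its r was 0.73 without control 3 and mutant 5, the 2 libraries farthest from the median of Gad1 (exact permutation p = 0.046), and between 0.72 and 0.85 with each library left out in turn. In deviations from the genotype means it was 0.70, with an exact permutation p of 0.054. For the other 9 genes r ran from -0.53 for Junb (exact permutation p = 0.17) and -0.50 for Arc (exact permutation p = 0.20) to 0.39 for Fos (exact permutation p = 0.34) and 0.45 for Egr3 (exact permutation p = 0.26), and that of Egr1 was -0.01. The median r of the 10 was -0.15, against -0.11 for all genes, with 4 above 0 and 6 below.

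For Lhx6, 1 of the 10 genes was positive and 0 were negative on the same rule, against 9.18% and 8.14% of all genes. Nptx2 had r = 0.74 (exact permutation p = 0.039, adjusted 0.26) and rho = 0.81 (exact permutation p = 0.022). The relation rested on the libraries at the ends: r was 0.56 without control 3 and mutant 5 (exact permutation p = 0.28), 0.60 without control 3 alone (exact permutation p = 0.13) and 0.52 in deviations from the genotype means (exact permutation p = 0.36). Its call was also lost without control 5 (r = 0.74), mutant 2 (0.75), mutant 4 (0.69) or mutant 5 (0.71). Junb had r = -0.65 (exact permutation p = 0.076), Arc -0.61 (exact permutation p = 0.11) and Nr4a1 -0.58 (exact permutation p = 0.13). Junb passed without mutant 5 (r = -0.77) and without both control 3 and mutant 5 (r = -0.89, exact permutation p = 0.018), and Arc passed without control 1 (r = -0.81, exact permutation p = 0.038). Among the remaining 6 genes r lay between -0.46 for Fosb and 0.49 for Egr3.

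**Figure D3:**
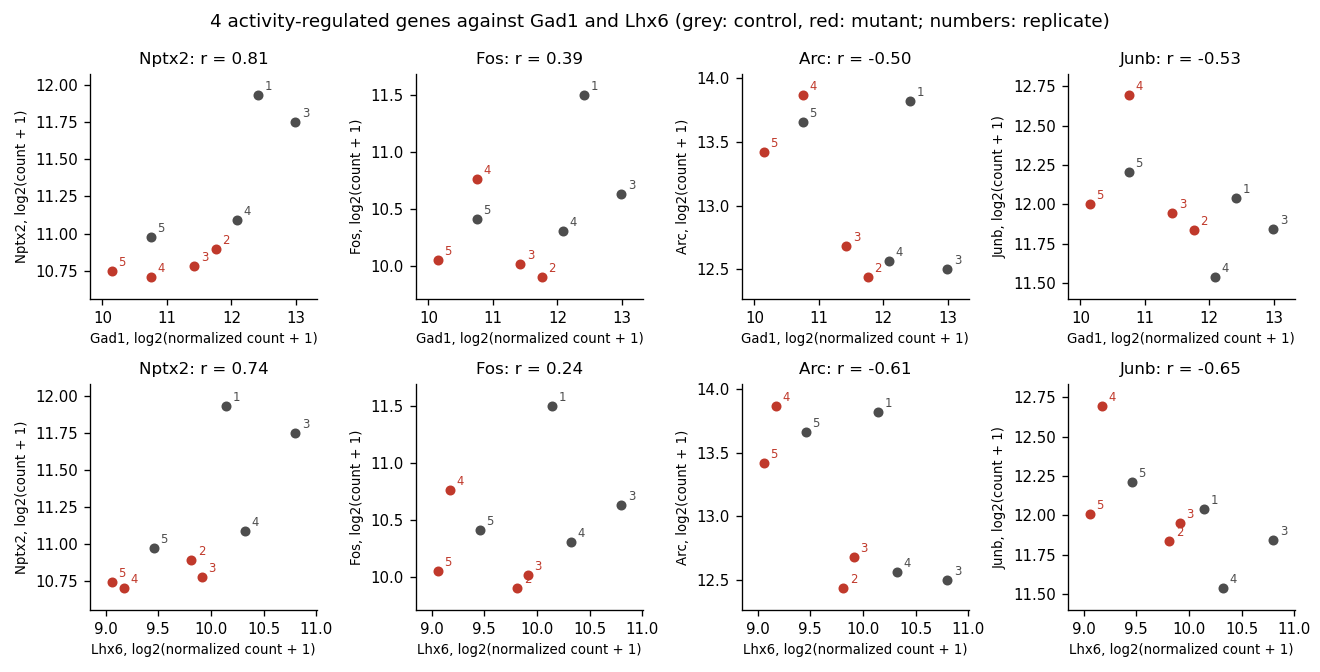
Nptx2, Fos, Arc and Junb (y axes) against Gad1 (upper row) and Lhx6 (lower row), all as log2(normalized count + 1), with controls in grey and mutants in red and the replicate number beside each point. Nptx2 rises with both (r = 0.81 and 0.74), with control 1 and control 3 at the upper right, while Arc (-0.50 and -0.61) and Junb (-0.53 and -0.65) have negative values of r that did not pass the test.

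The panels of other cells were set beside these relations. With the mean log2 level of 12 excitatory neuron markers, 0 of the 10 genes passed in either direction, and r lay between -0.38 for Nr4a1 and 0.27 for Npas4 (median -0.05). With the mean of 12 endothelial and mural markers, r was below 0 for 9 of the 10 genes (median -0.50, against 0.04 for all genes). This balance did not hold without control 1 and control 5, the 2 libraries farthest from the median of that panel. There r ran from -0.52 for Egr3 to 0.49 for Junb. Over all 8 libraries, 1 of the 10 passed on the negative side, against 3.57% of all genes. That gene was Fos, at r = -0.73 (exact permutation p = 0.042, adjusted 0.43), with rho = -0.50 (exact permutation p = 0.22), and its r fell to -0.23 without the library labelled control 1, which is the library with the lowest level of that panel and the highest level of Fos. The call was also lost without control 4, control 5, mutant 2, mutant 3 or mutant 5 (r from -0.79 to -0.67) and in deviations from the genotype means (r = -0.58, exact permutation p = 0.27). In deviations from the genotype means, r was -0.73 for Arc (exact permutation p = 0.035) and -0.59 for Npas4 (exact permutation p = 0.038). These p-values are unadjusted, and the share of all genes passing in deviations was not computed. Without control 1 and control 5, r on the log2 values was 0.09 for Arc (exact permutation p = 0.85) and -0.29 for Npas4 (exact permutation p = 0.54).

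Between the 10 genes themselves r was above 0 for 38 of 45 pairs, with a median of 0.39 and a range from -0.62 to 0.85. Without Fosb it was above 0 for 33 of 36 pairs, with a median of 0.48. These values are descriptions, since all pairs share the same libraries and the one labelled control 1 was high for most of the genes. Arc and Npas4 had the highest r (0.85, rho = 0.98). The 4 libraries highest for Arc were also the 4 highest for Npas4. Junb was next to them, with r = 0.77 to Arc (rho = 0.90). Nptx2 had r = 0.76 with Egr3, 0.75 with Bdnf and 0.74 with Fos, and 0.00 with Arc. The values of Arc leave a gap with 4 libraries on each side. Below the gap, mutant 2, control 3, control 4 and mutant 3 stood in the same order for Arc and Npas4. Above it, only control 1 and mutant 4 changed places. Without control 1 and mutant 4, r of Arc with Npas4 was 0.75 (exact permutation p = 0.053). Relations within each side of the gap were not tested.

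**Figure D4:**
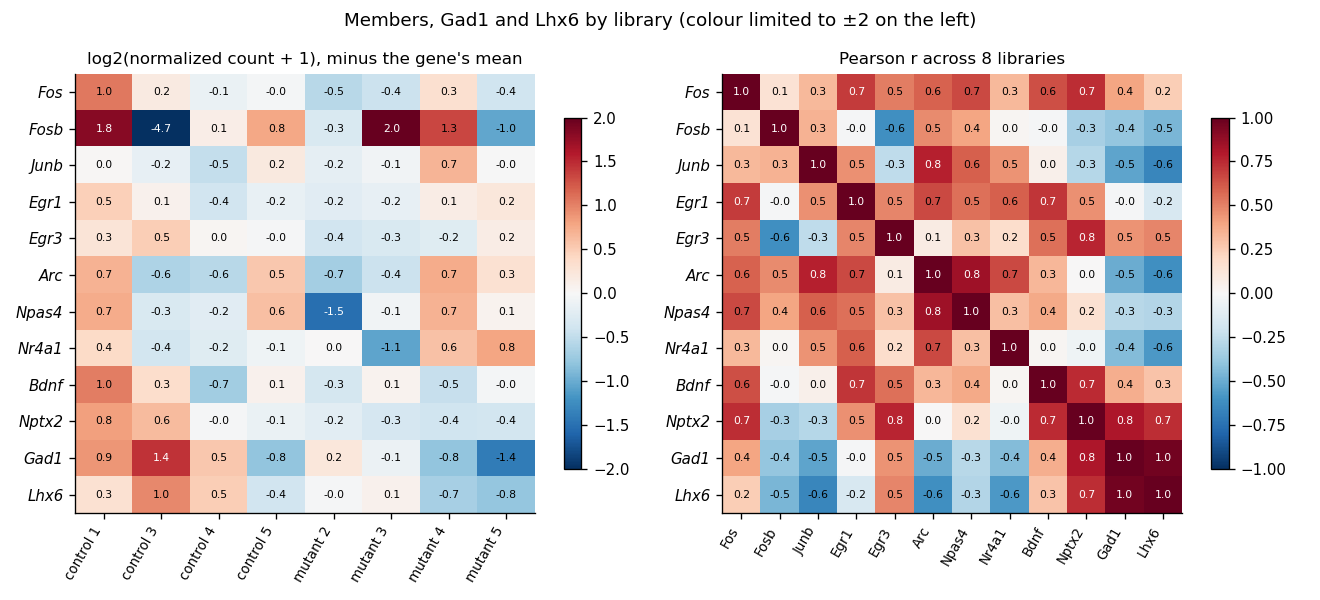
Left, log2(normalized count + 1) of each of the 10 genes, Gad1 and Lhx6 in each library minus the mean of that gene, with the number in each cell and colour limited to the range from -2 to 2. Right, Pearson r between them across the 8 libraries. Control 1 is above the mean for all 10 genes, Arc and Npas4 are paired at 0.85, and Nptx2 is the row nearest to Gad1 and Lhx6.

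Other genes whose pattern was most like that of the 8 early-response genes (all but Bdnf and Nptx2) were sought among 20005 genes with a mean of at least 100. The highest r to their mean log2 level was 0.97 for Oaf, followed by Chmp7, Efcab7 and Ccdc91 (0.96 each) and Eif2b5, Trp53rka, Gm5141 and A930015D03Rik (0.95 each). The value of 0 for Fosb in control 3 weighs heavily in that mean. Without Fosb the 8 nearest genes were led by Zfp839 and Zfp949 (0.97 each), Klhl12 (0.96) and Ppm1m (0.95), and 0 of the 8 were shared with the first list. The highest r of 20005 genes over 8 libraries was not set against a chance level, and shared regulation was not tested.

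The wider activity-regulated programme was read from 4 further lists. Of all genes tested, 3.17% were called lower and 3.98% higher. Their median log2 difference was 0.06, with 16637 of 31171 above 0. Of 22 other immediate early transcription factors, all tested, 0 were called lower and 1 higher, with 18 above 0 and a median log2 difference of 0.24. The gene called was Maff, a small Maf factor, at 361 ± 69.5 normalized counts in controls and 916 ± 682 in mutants (SD, n = 4; log2 difference 1.11). Mutant 4 held its highest value, at 1915, and without that library the difference was 0.67 and not called; the call was also lost without control 4 (1.01). With each library left out in turn, between 0 and 3 genes of the list were called higher, with 3 without mutant 2 and 2 without control 5 or mutant 3, and the replicate block called 2. The extremes of the list were low or uneven genes that did not pass: Fosl1 at 1.19 and Egr2 at -1.86, which was listed at 0 in mutant 3.

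Of 27 tested effectors of 28 listed, 1 was called lower and 2 higher, with a median of 0.06. Scg2, a secretogranin of dense-core vesicles, was lower by 1.27 on the log2 scale, with a mean of 61464 ± 31318 normalized counts in controls and 27451 ± 17928 in mutants (SD, n = 4). Dusp4, a MAP kinase phosphatase, was higher by 1.28 and Sik1, a salt-inducible kinase, by 0.92. With each library left out in turn, between 0 and 2 effectors were called in either direction, and the replicate block called 4 lower and 1 higher. Scg2 was not called without control 1, 3 or 4 or mutant 4 or 5 (-1.33 to -0.87). Dusp4 was not called without control 1, control 3, mutant 2 or mutant 4 (1.02 to 1.19), nor with the replicate block (0.89), and Sik1 was not called without control 1, control 5, mutant 4 or mutant 5 (0.53 to 0.96).

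Of 20 tested upstream regulators of 22 listed, 0 were called lower and 2 higher, with a median of 0.14. Elk4, a partner of SRF, was at 3406 to 6786 normalized counts in controls and 6901 to 10490 in mutants (log2 difference 0.67). Mef2a, a calcium-responsive MADS factor, was at 2116 to 3051 in controls and 3320 to 4873 in mutants (0.61). The genotypes did not overlap for either gene. Every mutant below every control held for 2.17% of all genes, and the share for the opposite order seen here was not computed. The differences of Elk4 and Mef2a fell below 1.5-fold with the replicate block (0.55 and 0.58). Between 0 and 4 regulators were called higher with a library left out, with 4 without control 4, 3 without control 3 and 0 without control 1 or mutant 4. Elk4 lost its call without control 1, mutant 3 or mutant 4 (0.43 to 0.62), and Mef2a without control 1, mutant 4 or mutant 5 (0.50 to 0.52).

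Of 11 partners and receptors, all tested, 0 were called lower and 3 higher, with a median of 0.10. They were Arnt, a dimer partner of bHLH-PAS factors (log2 difference 0.77), Nab1, a corepressor of Egr factors (0.72), and Pcsk7, a proprotein convertase (0.66). Between 1 and 3 were called higher with a library left out. Gria4, an AMPA receptor subunit named here after its values were seen, was also called lower without control 5, without mutant 3 and with the replicate block. Nab1 kept its call with each library left out, Arnt lost it without control 1, control 3, mutant 4 or mutant 5 (0.52 to 0.75) and Pcsk7 without control 1, control 3, mutant 2, mutant 4 or mutant 5 (0.51 to 0.72). The limma adjusted p was 0.58 for each called gene of the 4 lists.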

How the data were processed

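Synaptosomes of P15 cortex were subjected to anti-HA pulldown, and libraries were made from 1 ng of RNA with the SMARTer Ultra Low kit and sequenced paired-end on an Illumina HiSeq instrument. Each library came from a different brain of a different litter per the study's methods. The authors aligned reads with STAR 2.4.0 to mm10, counted them on constitutive regions of Fast DB genes and deposited a table of normalized counts (signal: reads divided by a DESeq2 size factor per library). Use of strand in counting is not given in the sources used here. Amplification from so little RNA and division by one factor per library leave differences in cell makeup in the values.

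Here log2(normalized count + 1) was fitted with limma 3.58.1 (R 4.3.3; lmFit, eBayes with trend, two-sided, no covariate) in genes with a mean of at least 10 in at least 1 genotype, with Benjamini-Hochberg adjustment over all 31171 genes. Calls needed a fold of at least 1.5 and an unadjusted p no higher than 0.05, as in the study. On simulated data with 200 genes changed 3-fold, 80% were recovered and 4.49% of unchanged genes were called. All values were whole multiples of a step per library (tolerance 0.01), which gave the reads on genes. A value of 1 read limits the precision of Fosb alone, since the other 9 genes had at least 197 reads in every library. Correlations used exact two-sided permutation of libraries, with Benjamini-Hochberg adjustment over all genes (numpy 2.4.6). The study used 2 sequencing batches, to which the labels used here do not assign libraries, so values within batches could not be given.

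The replicate numbers 3, 4 and 5 occur in both genotypes, while 1 occurs only in controls and 2 only in mutants. Deviations of same-numbered libraries from the genotype means correlated at 0.25, 0.21 and 0.24 over the 20014 genes with a mean of at least 100. Over all genes tested the values were 0.10, 0.098 and 0.082. Libraries of unlike number were not compared in this way, so these values do not show that same-numbered libraries are pairs. A fit with the number as a block was made as an alternative, and its genotype difference rests on numbers 3, 4 and 5 alone. The members and gene lists were chosen with earlier results of these data known. Named genes were all members, Gad1, Lhx6, Erbb4, the first marker of the excitatory and endothelial panels, every called gene of the other lists (for a list with fewer than 2 calls also its extremes), and the 8 genes most like the early-response members. Cldn5, the first endothelial marker, had a log2 difference of -0.13 and Slc17a7 -0.15, neither called. Of the listed symbols, 5 were not found in the table.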

Additional observations from a re-analysis of the deposited data

Results flagged for a closer look

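In 56 groups of 4 libraries (the members, Gad1, Lhx6, Erbb4, Slc17a7, Cldn5, the genes named from the 4 other lists and the excitatory and endothelial panels, in each genotype), 2 had a library far from the other 3 by Dixon's gap test at 95%, and chance alone flags about 1 group in 20. Both were the same library. For Fos, mutant 4 was at 1742 normalized counts against 956 to 1061 in the other mutants. For Junb, mutant 4 was at 6620 against 3658 to 4110.1 in the other mutants. Without mutant 4 the log2 difference of Fos was -0.72 and was called, while it was -0.27 without the library labelled control 1 and -0.17 with the replicate block. The cause of the values of this library was not tested.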

How the results depend on the processing

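The count of members called lower, 1 (Nptx2), was 0 with values relative to Gad1, with values relative to Lhx6, with limma without trend, with library weights, with Gad1 as covariate, with the replicate block and at an adjusted p of 0.05, and ran from 0 to 2 with a library left out. It was 0 without control 1 or control 3 and 2 without control 4 (Bdnf added) or mutant 4 (Fos added). With Lhx6 as covariate it was again 1, but the gene was Arc (-0.79). The median of the members, -0.21, was 0.83 relative to Gad1, 0.48 relative to Lhx6 and 0.22 with the replicate block, and ran from -0.33 to 0.05 with a library left out. The block changed no other call among the members and moved the counts over all genes from 988 lower and 1241 higher to 1719 and 1445. Relative to Gad1, 29 genes were called lower and 4763 higher, and relative to Lhx6 51 and 5053.

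Members that changed sign relative to Gad1 and to Lhx6 were Fos (0.51 and 0.16), Egr1 (1.03 and 0.68), Egr3 (0.66 and 0.31), Arc (1.01 and 0.65), Npas4 (0.64 and 0.28), Bdnf (0.66 and 0.30) and Nptx2 (0.39 and 0.036). Quantile normalization turned Egr1 (0.041) and Arc (0.034). Library weights turned Egr1 (0.29), Arc (0.43) and Npas4 (0.059), and the replicate block the same 3 genes (0.22, 0.41 and 0.21). Nr4a1 turned with Gad1 (-0.18) and Lhx6 (-0.38) as covariates, and Fosb (-0.27) and Junb (-0.068) with Lhx6 as covariate. With a library left out, the lowest and highest values were -0.14 and 0.15 for Egr1, -0.29 and 0.19 for Arc, -0.71 and 0.032 for Npas4, -0.077 and 0.54 for Nr4a1 and -0.41 and 1.77 for Fosb.

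The count correlated positively with Gad1, 1, was 0 in deviations from the genotype means, and the count correlated negatively ran from 0 to 1 with a library left out. With Lhx6, the positive count, 1, was 0 in deviations from the genotype means, without the 2 farthest libraries and under quantile normalization, and ran from 0 to 1 with a library left out. For Fos and the endothelial panel, r was -0.18 without the 2 farthest libraries. The negative count with Lhx6, 0, was 1 without the 2 farthest libraries and under quantile normalization, and ran from 0 to 1 with a library left out. The causes were not tested. Leave-one-library values of the other lists, of Arc with Npas4 and Arc with Junb, the values without Fosb, and the marker panels and other lists without control 1, with the block or with library weights were added after the data were seen. Count tests (edgeR, DESeq2) and TMM were not run, since the recovery of whole reads did not meet the criterion in 2 libraries, although their values were whole multiples of a step. Depth limits Fosb, which was at 0 reads in 1 library.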
